A study of Mus musculus with 24 samples.

Results

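The comparison is between the cerebellum of Cdr1as knockout and wild-type mice, and its members are the 6 dissected cerebellum libraries among the 24 libraries of the series, chosen by their labels. There are 3 wild-type libraries (WT) and 3 knockout libraries (KO), all from C57BL/6 mouse brain and all made from polyA RNA. The other 18 libraries cover the cortex, hippocampus and olfactory bulb with the same genotypes and 3 libraries a group, and they are used here only to ask where the cerebellum differs. The labels give no age, sex or treatment. Whether each library is its own animal, and whether libraries of equal number share a litter or day, is not given in the sources used here. P-values therefore measure the spread between these samples, which may be technical.

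Cdr1as is a circular RNA of neurons with many binding sites for the microRNA miR-7 and a site for miR-671, and the locus is known for its high expression in the brain. The cerebellum is built mainly of granule cells, very small excitatory neurons whose parallel fibres contact Purkinje cells, the inhibitory output neurons of the cortex. Unipolar brush cells are excitatory interneurons of the granular layer, Bergmann glia wrap the Purkinje cell synapses, and immediate-early genes such as Fos are switched on within minutes when neurons are active.

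Read counts assigned to genes were 27.6 M, 31.7 M and 32.9 M (M, mega-reads) in the WT libraries and 39.5 M, 27.7 M and 34.7 M in the KO libraries, and 19800 to 20485 features had a count. Levels are given as CPM, gene counts set relative to the library's total after TMM scaling, always for replicates 1, 2 and 3 in that order. The markers of the labelled tissue were present. Over 20 granule cell genes the mean log2(CPM + 1) was 8.30 to 8.49 in the 6 cerebellum libraries and at most 4.79 in any other region. Over 22 Purkinje cell genes it was 7.30 to 7.42 against at most 3.95, and 10 forebrain genes stood at 1.86 to 2.16 in the cerebellum against 6.33 to 6.48 in the cortex. All 6 libraries expressed the Y-linked gene Ddx3y, at 60.9 to 91.3 CPM.

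The libraries also differed within each genotype. The summed level of 11 choroid plexus genes, from the epithelium that makes cerebrospinal fluid, was 3385, 3725 and 191 CPM in WT and 668, 2124 and 1237 CPM in KO. Its defining gene Ttr was at 1860, 2128 and 3.55 CPM in WT and at 322, 1153 and 595 CPM in KO, so WT replicate 3 held almost none. Slc17a6, the vesicular glutamate transporter of the cerebellar nuclei and of midbrain and brainstem neurons, was at 90.2, 24.04 and 22.9 CPM in WT and at 60.3, 22.4 and 21.3 CPM in KO, high in replicate 1 of both genotypes. The largest principal component held 49.6% of the variance and set replicate 2 of both genotypes apart from the other libraries. Among genes of the top length quartile the median log2 difference of the replicate 2 libraries from the others was -0.11, against 0.03 in the lowest quartile. The median log2 difference of KO from WT was ordered by length too, at -0.03, -0.01, 0.01 and 0.04 from the lowest to the top quartile.

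**Figure D1:**
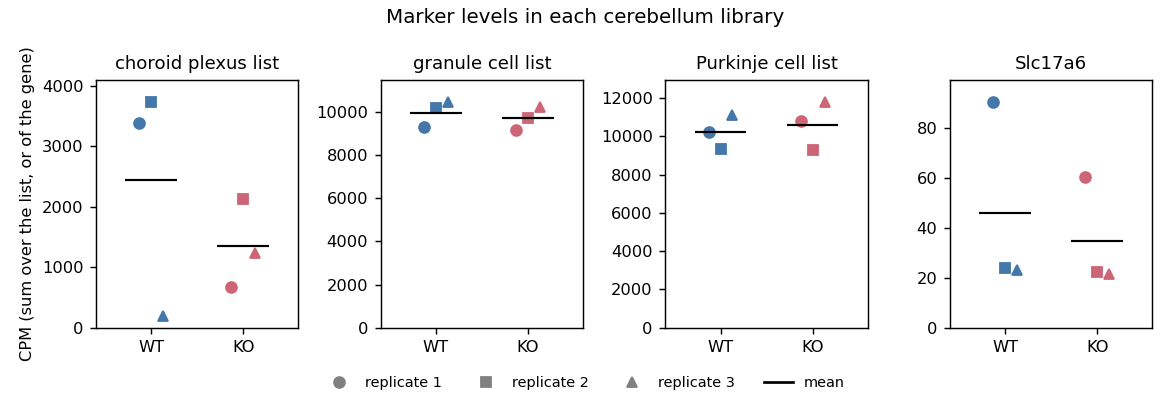
Marker levels in each cerebellum library (CPM, y axes from 0) for WT (blue) and KO (red), as the sum over the choroid plexus, granule cell and Purkinje cell lists and for Slc17a6. Symbols are replicate numbers and bars are means of 3 libraries; the choroid plexus sum runs from 191 to 3725 CPM and Slc17a6 is high in both libraries numbered 1, while the granule and Purkinje sums of WT and KO overlap.

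The targeted locus was read first. Cdr1asG, the feature the authors counted for the Cdr1as locus, had 503, 197 and 973 reads in WT and 20, 8 and 35 reads in KO. In CPM this was 18.3, 6.10 and 29.5 in WT against 0.50, 0.29 and 1.05 in KO, so every KO library lay below every WT library. The log2 difference was -4.85 (SE 0.77), and it did not pass in the unpaired edgeR quasi-likelihood test (Benjamini-Hochberg adjusted p = 0.499). It passed with the replicate number as a block (edgeR log2 -4.87, adjusted p = 0.000487) and in DESeq2 (adjusted p = 3.06e-06). Selection of polyA RNA is not designed to capture circles, so the circular form was not measured separately. Whether any of these reads came from it was not tested. The position of Cdr1asG is not given in the sources used here. The annotated gene Cdr1 had 0 reads in 5 libraries and 1 read in WT replicate 3. C230004F18Rik, a noncoding RNA of the same locus, stood at 9.52, 11.5 and 14.02 CPM in WT and 17.6, 10.1 and 30.5 CPM in KO, with overlapping groups (log2 0.74, SE 0.39).

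Differences across all genes were tested next. Of 15723 genes tested, 0 passed an adjusted p of 0.05 in the edgeR quasi-likelihood test, so 0% were called, and the smallest adjusted p was 0.412. At an unadjusted p under 0.05 there were 862 genes, 5.48% of those tested, with 455 higher (2.89%) and 407 lower (2.59%) in the knockout. Estimates were above 0 for 49.4% and below 0 for 50.6% of genes. All 3 KO libraries lay above all 3 WT libraries for 926 genes (5.89%) and below them for 892 genes (5.67%). limma-voom also called 0 genes. DESeq2 called 46 genes (0.293% of 15718), 29 higher (0.185%) and 17 lower (0.108%), and in all 46 the groups did not overlap. The edgeR fit with the replicate block called 3 genes (0.0191%): Cdr1asG, Fos and Nr4a2, and 8.85% of genes had an unadjusted p under 0.05 in that fit. For the genes named by the rule that DESeq2 called, the edgeR adjusted p reached 1.0 when KO replicate 3 was left out. In what follows, values are therefore given as measured differences, and a gene is said to have been called only together with the tool that called it.

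Immediate-early genes had higher estimates in the knockout more often than lower ones. They encode transcription factors and signalling regulators that neurons induce after activity. Of 46 listed genes 44 were measured, of which 33 had a higher and 11 a lower estimate in KO, and the median log2 was 0.35 against -0.00 over all genes tested. In 18 of the 44 (40.9%) all KO libraries lay above all WT libraries and in 3 (6.82%) below, against the 5.89% and 5.67% of all genes. edgeR called 0 of them and DESeq2 called 10, all higher. The sum over the list was 827, 857 and 933 CPM in WT and 1061, 1396 and 1406 CPM in KO, with no overlap.

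Among the AP-1 factors, Fos stood at 10.8, 16.3 and 27.1 CPM in WT and at 49.2, 114 and 102 CPM in KO. All KO libraries exceeded the highest WT library, the ratio of means was 4.90, and the log2 difference was 2.29 (SE 0.46). It was called by edgeR with the replicate block (adjusted p = 0.0222) and by DESeq2 (adjusted p = 0.00274). Fosb was at 2.08, 0.65 and 0.91 CPM in WT and 2.88, 5.39 and 6.20 CPM in KO (log2 2.0, SE 0.48), and Fosl2 at 16.2, 13.1 and 14.7 CPM against 22.9, 44.7 and 53.3 CPM (log2 1.46, SE 0.30). Both were non-overlapping and called by DESeq2 (adjusted p = 0.00407 and 5.87e-05). Among their dimer partners, Jun overlapped and Jund was lower. Jun was at 58.03, 70.6 and 69.6 CPM in WT and 64.5, 71.6 and 63.2 CPM in KO (log2 0.01, SE 0.10), and Jund was lower in all KO libraries (log2 -0.38, SE 0.13).

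The Nr4a family, orphan nuclear receptors induced by calcium and cAMP signals, was higher in every KO library for all 3 members. Nr4a2 was at 10.1, 12.3 and 19.8 CPM in WT and 28.9, 62.0 and 63.0 CPM in KO (log2 1.86, SE 0.39), and it was called with the replicate block (edgeR adjusted p = 0.0459) and by DESeq2 (adjusted p = 4.82e-06). Nr4a3 was at 19.4, 12.6 and 25.9 CPM against 42.8, 71.4 and 102 CPM (log2 1.90, SE 0.40), called by DESeq2 (adjusted p = 0.00804). Nr4a1 was at 17.7, 22.9 and 36.9 CPM against 42.3, 101 and 78.3 CPM (log2 1.51, SE 0.41) and was called by neither tool, though its groups did not overlap either. Npas4, a neuron-specific factor that follows calcium entry, was at 6.71, 7.27 and 4.34 CPM in WT and 11.6, 23.1 and 23.9 CPM in KO (log2 1.67, SE 0.33; DESeq2 adjusted p = 2.85e-05). The immediate-early members of smallest p were Trib1, a pseudokinase, at 19.3, 19.4 and 20.3 CPM against 28.04, 30.9 and 32.2 CPM (log2 0.63, SE 0.08), and Nfil3, a leucine zipper repressor, at 17.5, 16.99 and 18.4 CPM against 25.3, 29.1 and 28.1 CPM (log2 0.64, SE 0.09). Klf4, Per1, Dusp1, Klf2 and Sik1 were also higher in every KO library, with log2 differences of 0.99, 0.71, 1.17, 0.75 and 0.73. KO replicate 1 was the lowest of the KO libraries in 16 of the 18 members that did not overlap, and the log2 of Fos ran from 1.71 to 2.71 over the alternatives, the lowest when WT replicates 1 and 2 were left out together.

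**Figure D2:**
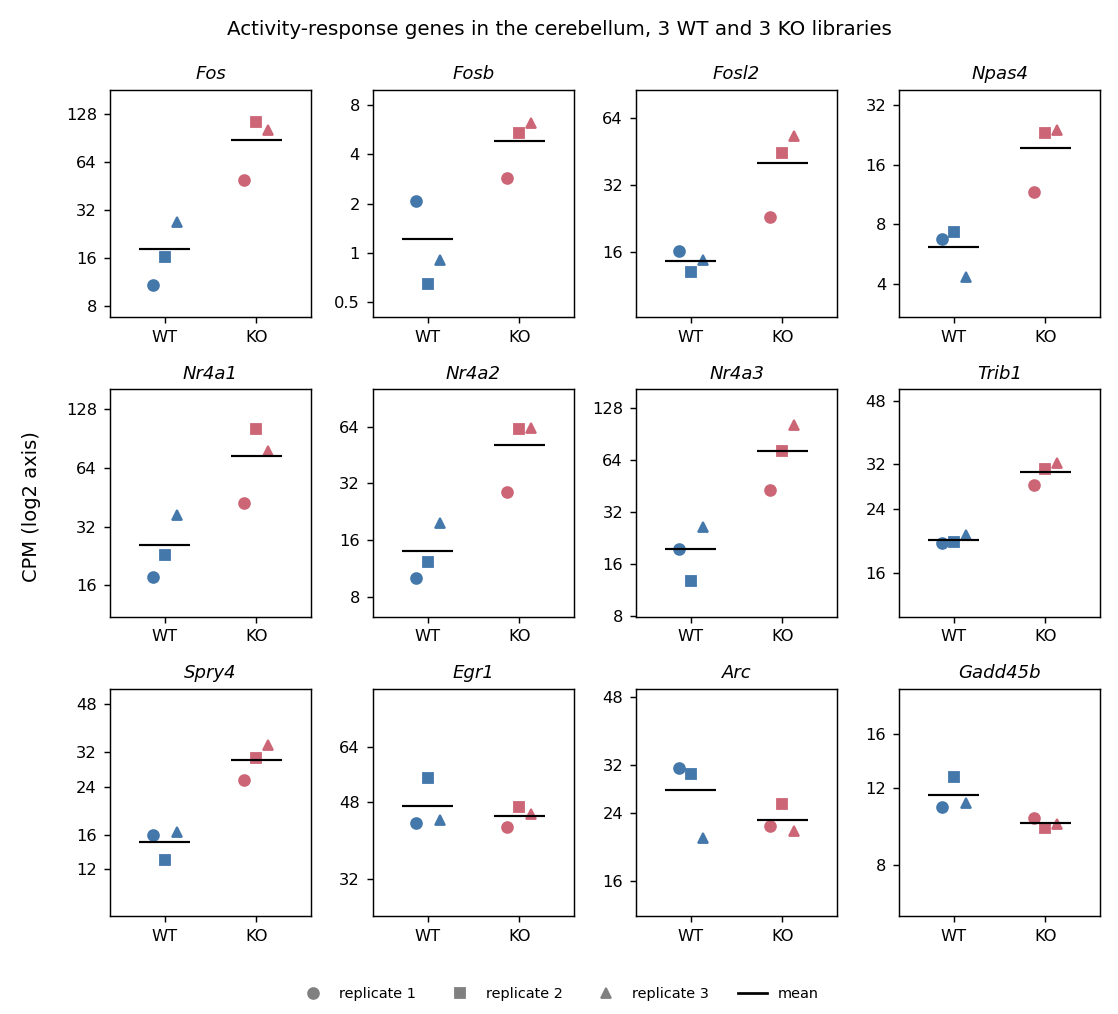
Level of 12 activity-response genes in each cerebellum library (CPM on a log2 axis whose range differs between panels) for WT (blue) and KO (red), with symbols for replicate numbers and bars for means of 3 libraries. The Fos, Nr4a, Npas4, Trib1 and Spry4 panels show KO above WT without overlap, with KO replicate 1 the lowest KO library, whereas Egr1 and Arc overlap and Gadd45b lies slightly lower in KO.

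Other well-known members overlapped or were lower. Egr1, a zinc finger factor induced with Fos in most neurons, was at 42.999, 54.4 and 43.7 CPM in WT and 41.97, 46.8 and 44.96 CPM in KO, and the groups overlapped (log2 -0.08, SE 0.11). Arc, which encodes a postsynaptic protein that governs glutamate receptor removal, was at 31.4, 30.3 and 20.7 CPM against 22.2, 25.3 and 21.6 CPM, again overlapping (log2 -0.25, SE 0.16). The sign of both estimates turned when WT replicates 1 and 2 were left out. Gadd45b, a stress-inducible factor, was at 10.9, 12.7 and 11.1 CPM in WT and 10.2, 9.74 and 9.91 CPM in KO (log2 -0.21, SE 0.10). Ier5 was at 20.2, 21.1 and 18.1 CPM in WT and 17.1, 15.98 and 14.2 CPM in KO (log2 -0.32, SE 0.11). In both, every KO library was lower. Neither was called by edgeR, with or without the block, or by DESeq2 in the cerebellum alone.

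Promoters are shown for 3 of the members with the largest differences, since these genes are known targets of CREB, the calcium- and cAMP-regulated factor that binds TGACG elements. The sequences run from 250 bases before to 50 after the start in RefSeq (GRCm38.p6), 5′ to 3′ on the strand of the gene, with each TGACG on either strand (CGTCA when read on the printed strand) in capitals. Fos is at chr12:85473640-85473939 (+), Npas4 at chr19:4989922-4990221 (-) and Nr4a2 at chr2:57123954-57124253 (-).
Fos: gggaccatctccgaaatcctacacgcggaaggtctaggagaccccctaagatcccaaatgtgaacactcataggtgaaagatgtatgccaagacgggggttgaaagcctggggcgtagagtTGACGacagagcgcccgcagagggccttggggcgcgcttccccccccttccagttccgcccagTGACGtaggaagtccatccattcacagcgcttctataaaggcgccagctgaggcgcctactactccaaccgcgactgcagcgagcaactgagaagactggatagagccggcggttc
Npas4: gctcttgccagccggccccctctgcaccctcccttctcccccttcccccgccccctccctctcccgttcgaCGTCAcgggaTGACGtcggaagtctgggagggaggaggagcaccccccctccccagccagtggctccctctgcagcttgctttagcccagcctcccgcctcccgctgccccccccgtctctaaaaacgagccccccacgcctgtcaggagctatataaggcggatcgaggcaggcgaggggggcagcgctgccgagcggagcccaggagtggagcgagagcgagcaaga
Nr4a2: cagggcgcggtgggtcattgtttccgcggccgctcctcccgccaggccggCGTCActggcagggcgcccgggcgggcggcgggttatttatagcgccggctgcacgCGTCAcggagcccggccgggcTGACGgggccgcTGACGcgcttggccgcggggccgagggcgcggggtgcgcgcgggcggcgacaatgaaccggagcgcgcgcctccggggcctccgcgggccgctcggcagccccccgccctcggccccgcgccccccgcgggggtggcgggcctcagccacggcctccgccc
This element was searched after the expression values were known. Of the 35 measured immediate-early members with a promoter in the table, 24 (68.6%) held it, among them 12 of the 15 that were higher in every KO library (80.0%), against 33.8% of the 11555 tested genes with a promoter. The full palindrome TGACGTCA, which contains the element on both strands, was in 3 of the 35 (8.57%) and 1 of the 15 (6.67%), against 3.38% of the tested genes. Other elements were searched too. The E-box CACGTG was in 9 of the 35 (25.7%) and 4 of the 15 (26.7%), against 11.2% of the tested genes. The serum response element (CArG box) was in 2 of the 35 (5.71%) and 0 of the 15, against 1.59%. The D-box form TTATGTAA was in 0 of the 35, against 0.701%. The form TTATGCAA was in 1 of the 35 (2.86%), against 0.744%. A higher share among the 35 was thus not particular to TGACG, though not every element searched had it. Fosl2 held no TGACG in this window although it was higher in every KO library. A match is a description of letters and was not tested as a binding site.

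Feedback regulators of the MAP kinase pathway, which damp receptor tyrosine kinase signals, were higher in KO for 4 of 14 measured genes without overlap (28.6%) and lower for 1 (7.14%), against 5.89% and 5.67% of all genes. Spry4, an inhibitor of Ras activation, was at 15.97, 12.9 and 16.4 CPM in WT and 25.4, 30.5 and 34.1 CPM in KO, without overlap (log2 0.99, SE 0.14). DESeq2 called it (adjusted p = 2.96e-06), as did the edgeR fit over all 24 libraries (adjusted p = 0.0103). Of the 14 genes 10 had a higher and 4 a lower estimate, with a median log2 of 0.18. Spred2, Dusp4 and Errfi1 were higher in every KO library (log2 0.38, 0.47 and 0.33) and Dusp2, at 1.24 CPM or below in all libraries, was lower (log2 -1.02, SE 0.33). Spry2 was at 40.9, 41.5 and 37.2 CPM against 37.96, 39.2 and 43.1 CPM and overlapped (log2 0.01, SE 0.08).

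The smallest p of all genes belonged to 1700016P03Rik, the noncoding transcript that hosts miR-212 and miR-132, which was named here after its values were seen. It was at 1.02, 0.50 and 1.12 CPM in WT and 4.48, 5.60 and 5.99 CPM in KO, so every KO library lay above WT, at a low level (log2 2.60, SE 0.30). Its edgeR adjusted p was 0.412, and DESeq2 called it (adjusted p = 2.19e-12). It also passed in edgeR without the filter on low counts (adjusted p = 0.0151). MicroRNAs themselves were not measured in these polyA libraries. The mature arms of the 2 hosted microRNAs (RefSeq), with the seed, bases 2 to 8, in capitals, are shown because they share that seed.
miR-132-3p: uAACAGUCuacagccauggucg
miR-212-3p: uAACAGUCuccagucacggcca
Of 14166 tested genes with an annotated 3′ UTR, 389 held the matching 8-base site GACTGTTA, and their median log2 was 0.03 against -0.00 for all of them. Among these 389 genes 6.94% lay higher without overlap and 3.34% lower, against 5.89% and 5.53% of all genes with a 3′ UTR. The median 3′ UTR was 2433 bases long in these genes and 1193.5 bases in all. The part of length in this median and in those of the sites below was not tested.

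The microRNAs tied to Cdr1as are miR-7, for which the circle carries its many sites, and miR-671, which directs its cleavage. Their mature sequences (RefSeq) are shown with the seed in capitals, which is the same in miR-7a and miR-7b and shares its first 5 bases with that of miR-671.
miR-7a-5p: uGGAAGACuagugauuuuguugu
miR-7b-5p: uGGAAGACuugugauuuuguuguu
miR-671-5p: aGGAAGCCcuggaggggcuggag
The 585 tested genes with the 8-base miR-7 site GTCTTCCA in a 3′ UTR had a median log2 of 0.01, and 53% of them had a higher estimate, against 49.6% of the 14166 genes. Groups were apart for 6.32% of the 585 in the higher direction and 5.47% in the lower, beside 5.89% and 5.53% of all. The 606 genes with the miR-671 site GGCTTCCA had a median log2 of 0.02, and 55.6% had a higher estimate. Groups were apart for 7.59% of the 606 in the higher direction and 4.62% in the lower. The 24 genes with at least 2 miR-7 sites had a median log2 of -0.03, and 0 of them had groups apart in the higher direction. The 39 genes with at least 2 miR-671 sites had a median of 0.07, with 12.8% apart higher and 2.56% lower. For the 16 genes with at least 2 miR-132 sites these values were 0.04, 18.8% and 0%.

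Of 30 genes reported elsewhere as miR-7 targets, all were measured, 19 had a higher and 11 a lower estimate, and the median log2 was 0.05. In 4 of them (13.3%) every KO library was higher, namely Nr4a3 and Klf4, described above as immediate-early genes, and Skp2 and Pik3r3, and in 1 (Pak1, 3.33%) every KO library was lower, against 5.89% and 5.67% of all genes. Skp2, a ubiquitin ligase subunit of the cell cycle, was at 11.3, 12.9 and 18.1 CPM in WT and 20.7, 18.5 and 19.6 CPM in KO (log2 0.48, SE 0.17). Irs2, an insulin receptor substrate, was at 52.4, 43.4 and 46.5 CPM against 42.9, 50.5 and 58.7 CPM (log2 0.10, SE 0.13). An 8-base site lay in the 3′ UTR of 13 of the 29 with an annotated one. The first site of Nr4a3 and of Irs2 is shown with its flanking bases (GENCODE M21 transcripts), the site in capitals, since a member with a large and one with a small difference carry the same match.
Nr4a3: gccagtgttcttctGTCTTCCAtagttatc
Irs2: ttgccctccctgttGTCTTCCActgtacat
Klf4, Skp2 and Pik3r3 held no 8-base site in the 3′ UTR examined. Mir7-1, which with Mir7-2 is annotated as a gene of miR-7a, was at 0.44, 1.18 and 0.94 CPM in WT and 0.73, 1.498 and 1.47 CPM in KO. Its groups overlapped (log2 0.50, SE 0.42). The host gene of Mir7-1, Hnrnpk, was at 435, 441 and 416 CPM against 425, 439 and 484 CPM (log2 0.06, SE 0.08).

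Clock genes, the feedback loop of daily rhythm, had members apart in both directions. Of 22 measured genes 14 had a higher and 8 a lower estimate, 6 (27.3%) lay higher in every KO library and 4 (18.2%) lower, against 5.89% and 5.67% of all genes. The repressors Per1, at 81.5, 92.7 and 107 CPM in WT and 125, 166 and 169 CPM in KO (log2 0.71, SE 0.15), and Cry1, at 41.1, 37.2 and 37.5 CPM against 60.4, 50.7 and 52.7 CPM (log2 0.50, SE 0.09), were among the higher ones, and DESeq2 called both (adjusted p = 0.00287 and 0.00528). Per2, Arntl and Nfil3 were higher as well, with log2 differences of 0.40, 0.24 and 0.64. Per1 and Nfil3 were also counted in the immediate-early list. Dbp, a D-box activator driven by the clock, was at 76.3, 105 and 89.2 CPM in WT and 54.5, 49.5 and 54.1 CPM in KO, without overlap (log2 -0.78, SE 0.12; DESeq2 adjusted p = 2.94e-05). Ciart, Bhlhe41 and Bhlhe40, all repressors with E-box input, were lower in every KO library (log2 -0.50, -0.33 and -0.24). The hour of dissection is not given in the sources used here, and its part in these differences was not tested.

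Few genes of the major cerebellar neurons had groups apart. Granule cell genes had a median log2 of -0.05, with 6 higher and 14 lower estimates among 20 measured. Gabra6, the GABA-A receptor subunit restricted to granule cells, was at 743, 758 and 867 CPM in WT and 788, 761 and 882 CPM in KO, and overlapped (log2 0.04, SE 0.10). Cbln1, the cerebellin that granule cells release to hold parallel fibre synapses together, was at 172, 192 and 157 CPM against 125, 145 and 134 CPM, the lower values all in KO (log2 -0.37, SE 0.10). Zic2 was lower in every KO library too (log2 -0.25, SE 0.10), and these were the 2 of the 20 (10%) without overlap, against 5.67% of all genes lower and 11.6% in either direction. Neither was called by edgeR or DESeq2. In bulk tissue fewer cells of a type and less RNA per cell cannot be told apart.

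Purkinje cell genes had a median log2 of 0.04, with 18 higher and 4 lower estimates (81.8% higher, against 49.4% of all genes). Of the 22 measured genes, 0 had groups apart or an unadjusted edgeR p under 0.05. Calb1, the calcium buffer calbindin, was at 1087, 1076 and 1189 CPM in WT and 1095, 1078 and 1249 CPM in KO (log2 0.03, SE 0.09), and Car8 differed by -0.02 (SE 0.11). At the parallel fibre to Purkinje cell synapse, 2 of 29 measured genes lay lower in every KO library (6.90%, against 5.67% of all genes), Cbln1 and the presynaptic glutamate receptor Grm4, which was at 732, 772 and 769 CPM against 502, 652 and 589 CPM (log2 -0.38, SE 0.11). Receptors and channels of granule cells had a median log2 of 0.01 over 22 genes, and inhibitory interneuron genes of 0.02 over 14, with 0 of the interneuron genes apart.

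Eomes, the T-box factor that marks unipolar brush cells in the cerebellum, was the 1 gene of the cell type lists that DESeq2 called. It was at 30.02, 21.7 and 31.6 CPM in WT and at 57.5, 71.3 and 91.7 CPM in KO, so the lowest KO library stood well above the highest WT library. The means were 27.8 ± 5.3 and 73.5 ± 17.2 CPM (SD, n = 3 each), the log2 difference was 1.40 (SE 0.21), and the unpaired edgeR test gave an adjusted p of 0.498 while DESeq2 called it (adjusted p = 1.88e-08). Of the other 8 markers of this cell type 7 had overlapping groups. Lmx1a was at 2.04, 2.07 and 0.79 CPM in WT and 1.30, 2.03 and 0.90 CPM in KO (log2 -0.22, SE 0.44), and Otx2 at 17.8, 17.02 and 12.8 CPM against 15.7, 18.4 and 16.2 CPM (log2 0.08, SE 0.14). Calb2, the calcium buffer calretinin, was at 428, 439.8 and 407 CPM in WT and 443, 457 and 464 CPM in KO, higher in every KO library by a small margin (log2 0.10, SE 0.07). Over the 9 measured markers the median log2 was 0.07, with 2 apart in the higher direction, Eomes and Calb2 (22.2%, against 5.89% of all genes).

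**Figure D3:**
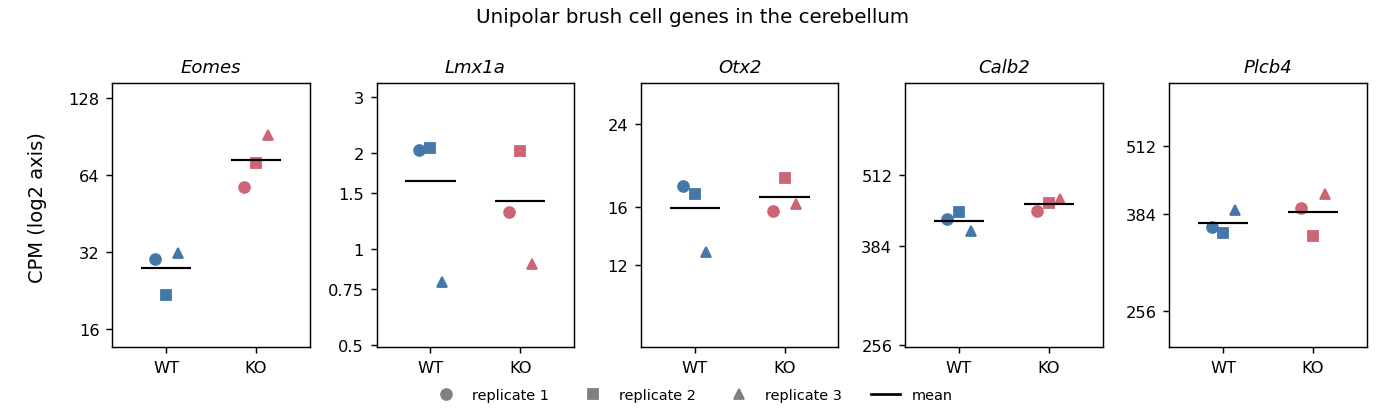
Level of 5 unipolar brush cell genes in each cerebellum library (CPM on a log2 axis whose range differs between panels) for WT (blue) and KO (red), with symbols for replicate numbers and bars for means of 3 libraries. Eomes separates the genotypes, at most 31.6 CPM in WT and at least 57.5 CPM in KO, Calb2 does so by a small margin, and Lmx1a, Otx2 and Plcb4 overlap.

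Neurons of the cerebellar nuclei had 7 measured genes, all with a lower estimate in KO (median log2 -0.12) and all with overlapping groups. Lhx9 was at 12.4, 0.65 and 1.30 CPM in WT and 8.84, 0.75 and 0.51 CPM in KO, high in replicate 1 of both like Slc17a6, and the estimates of both genes turned positive without WT replicate 1 (log2 1.81 and 0.57).

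Among glia, Bergmann glia genes had a median log2 of 0.07 over 15 genes, with 11 higher and 4 lower estimates. Astrocyte genes had a median of -0.03 over 13, with 5 higher and 8 lower estimates. Slc1a3, the glutamate transporter GLAST, was at 1589, 1555 and 1537 CPM in WT and 1512, 1587 and 1802 CPM in KO and overlapped (log2 0.07, SE 0.09). The progenitor factor Sox2 was at 29.9, 27.5 and 24.4 CPM against 21.1, 21.2 and 21.8 CPM, the lower values all in KO (log2 -0.35, SE 0.09), and Glul, glutamine synthetase, was lower in every KO library as well (log2 -0.28, SE 0.11). Each was the 1 member apart in its list, 6.67% of the 15 and 7.69% of the 13. These shares are near the 5.67% of all genes that lay lower. Sox9 overlapped (log2 -0.49, SE 0.20), as did Fabp7, which had the highest estimate of the Bergmann glia list (log2 0.33, SE 0.18).

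Of 11 oligodendrocyte precursor genes 9 had a lower and 2 a higher estimate in the knockout, with a median log2 of -0.20, and 8 had overlapping groups. Their sum was 292, 241 and 256 CPM in WT and 226, 232 and 226 CPM in KO, without overlap. Olig1, a lineage factor, was at 74.8, 62.3 and 68.1 CPM in WT and 55.6, 57.4 and 50.7 CPM in KO (log2 -0.33, SE 0.09). Olig2, its partner, was at 22.3, 15.04 and 17.03 CPM against 13.5, 12.5 and 12.4 CPM (log2 -0.50, SE 0.15), and Pdgfra, the growth factor receptor of precursors, at 35.3, 26.2 and 30.1 CPM against 25.01, 24.3 and 25.4 CPM (log2 -0.29, SE 0.11). These were the 3 members (27.3%) with every KO library lower, against 5.67% of all genes, and 0 were called by edgeR or DESeq2. WT replicate 1 had the highest value of each of the 3. Mature oligodendrocyte genes had a median log2 of -0.08, with 2 higher and 13 lower estimates and 0 of 15 apart. Mbp, which encodes myelin basic protein, differed by -0.06 (SE 0.09). A lean to lower estimates was thus not particular to the precursor list.

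Microglia genes had a median log2 of -0.08, with 3 higher and 10 lower estimates and 0 of 13 apart. Endothelial genes had a median of -0.05, and Clec14a and Ly6c1 were lower in every KO library (log2 -0.69 and -0.22). They were 2 of 13 (15.4%), against 5.67% of all genes, and neither was called by edgeR or DESeq2. The choroid plexus list had a median of -0.77 with 0 of 11 apart, and without WT replicates 1 and 2, the pair rich in this tissue, the median was 3.62, so its sign depends on which WT libraries are used. Ependymal genes had a median of -0.44 with 1 of 8 apart (12.5%, against 5.67% of all genes lower), Tekt4, at 1.05 CPM or below in all libraries. The brainstem markers, chiefly Hox genes, averaged 0.07 to 0.16 on the log2(CPM + 1) scale in the cerebellum.

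**Figure D4:**
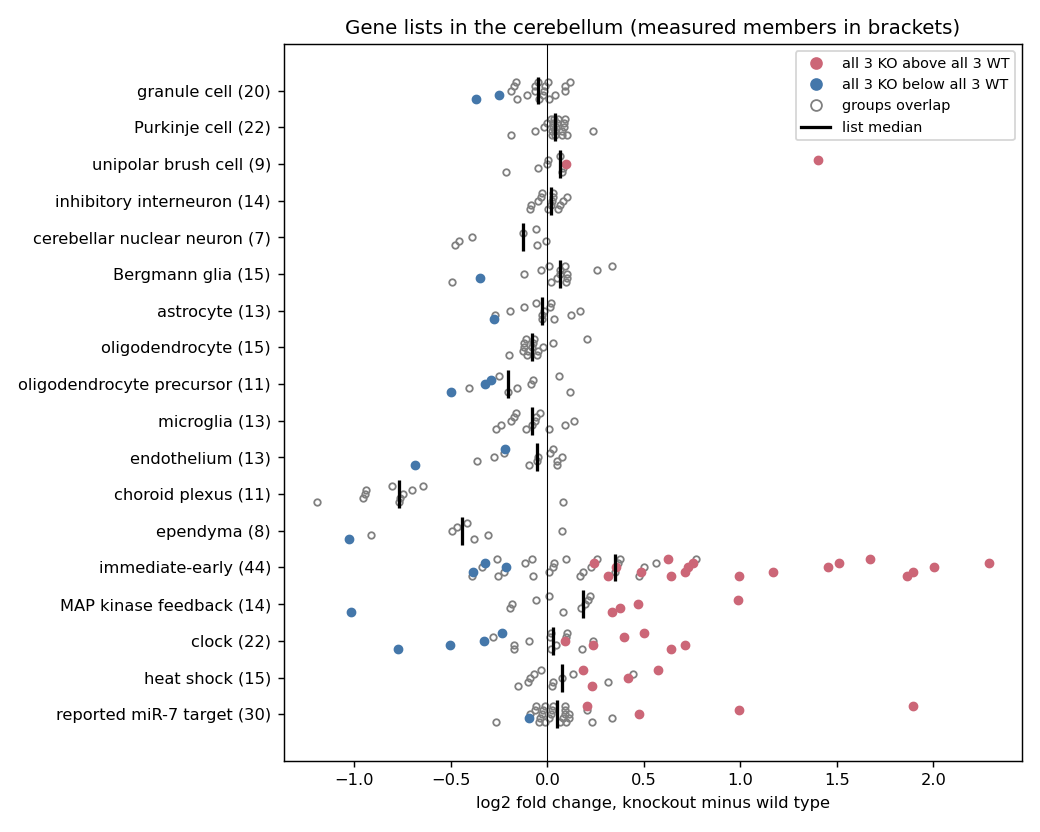
Log2 fold change (KO minus WT, edgeR, x axis) of the measured members of 18 gene lists (y axis, number measured in brackets), 1 point per gene. Filled points are genes whose 3 KO libraries all lie above (red) or below (blue) the 3 WT libraries, and black bars are list medians; the immediate-early list has 18 red points and a median of 0.35, while the granule and Purkinje cell medians are -0.05 and 0.04.

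Genes of the stress and hormone responses were counted beside the immediate-early genes. Heat shock genes had a median log2 of 0.08 over 15 genes, and 4 (26.7%, against 5.89% of all genes) lay higher in every KO library and 0 lower: Dnajb1, at 44.4, 30.8 and 35.6 CPM in WT and 49.1, 47.5 and 68.4 CPM in KO (log2 0.58, SE 0.18), Bag3, Dnajb4 and Hsf1. The inducible chaperone Hspa1a was highest in KO replicate 3 and WT replicate 1, at 14.9 and 13.5 CPM, and overlapped (log2 0.44, SE 0.60). The heat shock sum was 6227, 4017 and 4048 CPM in WT and 4753, 4711 and 5851 CPM in KO. The median of the list was 0.31 without WT replicate 1, 0.02 without WT replicate 2 and 0.01 without KO replicate 3. The part of handling in the immediate-early values was not tested. Of 13 glucocorticoid-responsive genes 6 had a higher and 7 a lower estimate, 4 (30.8%) lay higher in every KO library and 2 (15.4%) lower, against 5.89% and 5.67% of all genes. The higher ones were Per1 (log2 0.71), Pdk4 (0.41), Errfi1 (0.33) and Cdkn1a (0.33), a cell cycle inhibitor. Per1 was also counted in the immediate-early and clock lists, and Errfi1 in the MAP kinase list. Mt2, a metallothionein, was at 156, 209 and 183 CPM in WT and 103, 130 and 106 CPM in KO (log2 -0.69, SE 0.13; DESeq2 adjusted p = 0.00181), and Mt1 was lower in every KO library too (log2 -0.43, SE 0.12). Fkbp5, a standard glucocorticoid target, overlapped (log2 -0.09, SE 0.27).

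Outside these lists, the genes of smallest p with a higher level in KO were Dnase1l2, at 14.9, 14.2 and 17.2 CPM in WT and 23.03, 26.5 and 25.7 CPM in KO (log2 0.70, SE 0.11), Nos1, Frmd6, St5 and Thbs1. Nos1, the neuronal nitric oxide synthase that granule cells and molecular layer interneurons express, was at 161, 172 and 166 CPM against 216, 227 and 218 CPM (log2 0.40, SE 0.07). Thbs1, a secreted synaptogenic matrix protein, was at 6.24, 4.61 and 4.31 CPM against 8.62, 10.8 and 11.05 CPM (log2 1.01, SE 0.18). None of their groups overlapped, and DESeq2 called each of the 5 (adjusted p = 8.87e-05, 0.000150, 0.00285, 0.00528 and 0.000698 in the order first named).

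Among genes lower in KO, Apcdd1, a membrane inhibitor of Wnt signalling, was at 29.5, 29.8 and 28.6 CPM in WT and 18.04, 17.2 and 20.7 CPM in KO (log2 -0.65, SE 0.09; DESeq2 adjusted p = 2.94e-05). Zbtb18, a zinc finger transcriptional repressor, was the most abundant gene of this group, at 948, 937 and 867 CPM against 634, 685 and 711 CPM (log2 -0.44, SE 0.08; DESeq2 adjusted p = 0.000698). Irf2bpl was at 102, 102 and 104 CPM against 77.3, 78.8 and 84.5 CPM (log2 -0.35, SE 0.07). Heyl, a Notch target and bHLH repressor, was at 5.14, 5.85 and 5.22 CPM against 2.33, 3.28 and 3.05 CPM (log2 -0.91, SE 0.17). Zfp867, Plekho2, Zc3h6 and Pim3, a serine/threonine kinase, completed the rule with log2 differences of -0.86, -0.49, -0.50 and -0.36, and DESeq2 called all of these.

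Where the cerebellum differed from the other regions was tested as the knockout effect in the cerebellum minus the mean effect in the cortex, hippocampus and olfactory bulb, over all 24 libraries. Of 17266 genes 1 passed in edgeR (0.00579%), and 447 had an unadjusted p under 0.05 (2.59%), 185 with a more positive (1.07%) and 262 with a more negative effect (1.52%) in the cerebellum. The gene was Eomes, whose effect was 1.41 (SE 0.29) in the cerebellum, -3.72 (SE 0.50) in the cortex, 0.33 (SE 0.46) in the hippocampus and -0.11 (SE 0.28) in the olfactory bulb, a difference of 2.57 (SE 0.38, edgeR adjusted p = 0.0382). In the cortex the gene was at 5.34, 2.21 and 2.25 CPM in WT and 0.12, 0.51 and 0.10 CPM in KO, and in the olfactory bulb at 126 to 163 CPM, so the cortex level was low. Against the hippocampus and bulb alone the difference was 1.30 and was not called (adjusted p = 1.0 in edgeR). It was also lost when WT replicate 1, 2 or 3 or KO replicate 2 or 3 was left out (adjusted p = 0.051 to 0.275), and the adjusted p over all alternatives ran from 1.28e-07 to 1.0.

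The next genes had a more negative effect in the cerebellum and include activity-regulated ones. Rara, the retinoic acid receptor alpha, was at 25.7, 26.3 and 23.2 CPM in WT and 15.3, 19.5 and 18.4 CPM in KO of the cerebellum, while its effect was 0.91 (SE 0.14) in the cortex and 0.58 (SE 0.14) in the hippocampus. The difference was -0.98 (SE 0.16, edgeR adjusted p = 0.0535). Gadd45b had effects of 0.83, 0.74 and 1.0 in cortex, hippocampus and bulb against -0.21 in the cerebellum, a difference of -1.07 (SE 0.18, edgeR adjusted p = 0.0535). Ier5, Irf2bpl and Bhlhe40 differed by -0.61, -0.48 and -0.60 (SE 0.12, 0.10 and 0.12). With the replicate block edgeR called 9 genes, Eomes with a more positive effect and 8 with a more negative one, these 5 together with Mvd, Sertad1 and Nab2, and DESeq2 called 11. The adjusted p of Rara ran from 2.31e-05 to 1.0 and that of Gadd45b from 9.23e-05 to 1.0 over the alternatives.

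For Egr1 and Arc the effects outside the cerebellum were 1.0 to 1.30 and 1.37 to 2.0. The differences were -1.23 (SE 0.37) and -1.89 (SE 0.50), with unadjusted p of 0.00333 and 0.00145 and an edgeR adjusted p of 1.0 each, so they did not pass. The effect on Fos was 2.297 (SE 0.53) in the cerebellum in this fit, and its difference from the other regions was 0.46 (SE 0.59), not beyond its error. Over the 44 immediate-early genes the median effect was 0.36 in the cerebellum, 0.82 in the cortex, 0.40 in the hippocampus and 0.82 in the bulb. A higher estimate was found for 33, 38, 38 and 41 of them. The shares of all genes with a higher estimate were 49.7%, 50.1%, 49.8% and 54.2% in the same order. Spry4 had a larger effect in the cerebellum, 0.99 (SE 0.14) against 0.45, 0.12 and 0.63, a difference of 0.59 (SE 0.16) with an unadjusted p of 0.00154 that did not pass the adjustment.

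**Figure D5:**
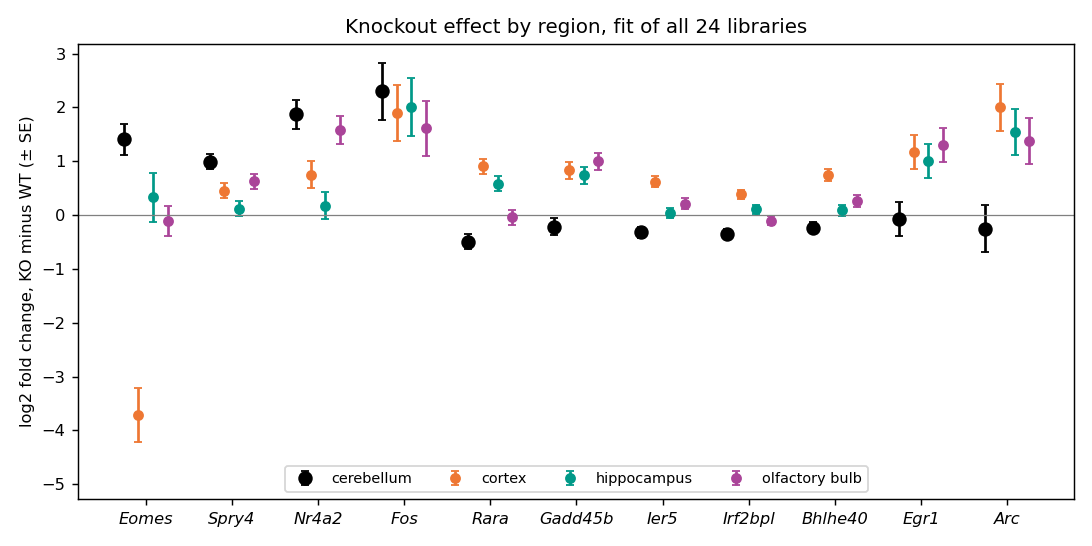
Knockout effect (log2, KO minus WT, y axis, with SE bars) on 11 genes (x axis) in the cerebellum (black), cortex (orange), hippocampus (green) and olfactory bulb (purple), from the edgeR fit of all 24 libraries. Eomes is 1.41 in the cerebellum and -3.72 in the cortex, Fos is above 0 in every region, and Rara, Gadd45b, Ier5, Irf2bpl, Bhlhe40, Egr1 and Arc have estimates below 0 in the cerebellum.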

How the data were processed

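PolyA RNA of 6 cerebellum libraries (3 per genotype) was analysed, with 18 libraries of the other regions for the comparison between regions. Groups and replicate numbers come from the sample titles. Each library has a deposited table of whole-number counts of reads by gene, not normalized, from a strand-preserving mRNA kit per the labels' protocols. Per the submitters' processing notes, bcl2fastq 2.17.1.14, STAR 2.5.1b, HTSeq 0.6.1p1 and build mm9 were used. The strand setting of the counting is not given in the sources used here. Genes that overlap or lie antisense, as at the Cdr1as locus, are therefore uncertain. Of 37626 lines 5 were summaries that name no gene and were left out of library sizes and tests (14.4% to 16.8% of cerebellum reads fell in no feature). Of 37621 features 32897 matched a symbol by ID, and the rest kept their ID.

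Counts were filtered with filterByExpr, scaled with TMM and tested with edgeR 4.0.16 (quasi-likelihood F test, robust) in R 4.3.3, with Benjamini-Hochberg adjustment over all genes tested and a threshold of 0.05. SE is the log2 difference over the root of F. DESeq2 1.42.0, limma 3.58.1 (voom), a replicate block, other scalings and filters and left-out libraries were the alternatives. On simulated counts with 15579 genes, edgeR called 81% of genes changed by a log2 of 1 and 96% of those changed by 2. DESeq2 called 87% and 99% of them, and edgeR with the block 80% and 96%. False calls on unchanged genes numbered 21 in edgeR, 50 in DESeq2 and 26 with the block. The simulated libraries varied independently, without the shared replicate and tissue differences of the real ones. These shares therefore do not give the power or the false calls in the real libraries. Replicates of equal number deviated together (r = 0.263, 0.802 and 0.319 over 13966 genes), so numbers were taken as pairs in the block fit. Only the pair numbered 2 stood out, since unequal numbers reached r = 0.357 (WT 3 with KO 1) and 0.258 (WT 1 with KO 3). These values do not show that replicates 1 and 3 are paired by number, as the block fit assumes. No pair of libraries in a group was a copy of another.

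The comparison, the 28 gene lists (391 symbols, 386 matched, 5 of them by synonym, 367 measured) and the tests were chosen with earlier results of these data known. Genes were named by a rule: the locus genes, the 10 per direction of smallest edgeR p with a mean of at least 1 CPM and groups apart (unnamed predicted genes replaced by the next), the 12 immediate-early members of smallest p with Egr1 and Arc, the first 3 and up to 4 further members of smallest p of each other list, the 5 per direction of smallest p in the difference between regions, and genes called with the block. 1700016P03Rik, Arntl, Bhlhe41, Ciart, Ddx3y, Dusp1, Errfi1, Jun, Jund, Klf2, Pak1, Pdk4, Pik3r3 and the genes of the closing observations fall outside it and were named after their values were seen. 3′ UTRs and target sites come from GENCODE M21, promoters and microRNAs from RefSeq, matched by symbol. Some genes that the rule names are not reported here.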

Additional observations from a re-analysis of the deposited data

Results flagged for a closer look

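The knockout effect on Eomes differed between the cerebellum and the mean of the cortex, hippocampus and olfactory bulb by 2.57 on the log2 scale (SE 0.38), tested as a contrast over all 24 libraries (edgeR adjusted p = 0.0382). Within the cerebellum the 3 KO libraries lay above the 3 WT libraries, and in the cortex they lay below them at a much lower level. The hippocampus, with effects of 0.33 (SE 0.46), and the bulb, with -0.11 (SE 0.28), showed no difference beyond their errors. Groups of 3 libraries are too small for a test of single outlying libraries.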

How the results depend on the processing

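The count of genes called in the cerebellum was 0 in edgeR, 3 with the replicate block, 46 in DESeq2, 1 without the low-count filter and 2 in the fit of all 24 libraries, and 0 under the other scalings and filters, limma-voom and each left-out library. For the difference between regions the count of 1 became 9 with the replicate block, 11 in DESeq2, 2 in limma-voom, 3 with RLE factors, 2 with library totals and 0 without the low-count filter. It was 0 without both libraries numbered 2, 0 to 2 without single libraries, 5 against the cortex alone and 0 against the hippocampus, the bulb or both, contrasts chosen after seeing the data. The cause of these changes was not tested.

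Some estimates, none of them called, changed sign. Without WT replicates 1 and 2, chosen after seeing the data and with the lone WT library assumed to vary like the KO libraries, the log2 was 0.033 for Egr1, 0.16 for Arc, -0.092 for Gabra6, -0.055 for Calb1, 0.83 for Lmx1a, -0.0082 for Plcb4, 0.61 for Slc17a6, 1.40 for Lhx9, 0.071 for Mbp and 7.60 for Ttr. limma-voom gave 1.32 for Ttr. With single libraries left out the log2 ran from -0.138 to 0.048 for Egr1, -0.027 to 0.117 for Gabra6, -0.133 to 0.062 for Neurod1, -0.041 to 0.083 for Calb1, -0.558 to 0.024 for Lmx1a, -0.046 to 0.168 for Otx2, -1.05 to 0.567 for Slc17a6, -2.9 to 1.81 for Lhx9, -0.022 to 0.175 for Irs1, -0.022 to 0.211 for Irs2, and -0.035 to 0.439 for the Npas4 difference between regions. The call on Eomes between regions was lost under 10 of 19 alternatives.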

Other observations

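A pair of X-linked genes of the lymphocyte-regulated family, named after their values were seen, was lower in every KO library. Xlr3b was at 18.1, 5.54 and 8.98 CPM in WT and 3.63, 3.42 and 1.95 CPM in KO (log2 -1.85, SE 0.48; DESeq2 adjusted p = 0.00274, edgeR adjusted p = 0.694). Xlr4b was at 0.88, 0.40 and 2.19 CPM in WT and at or under 0.14 CPM in KO (log2 -4.43, SE 0.999; DESeq2 adjusted p = 0.00407, edgeR adjusted p = 0.627). The family has near-identical copies, so the split of reads among them is uncertain.

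Plat, which encodes tissue plasminogen activator, a protease of granule cells and synapses, was at 44.3, 53.8 and 48.1 CPM in WT and 64.9, 73.4 and 77.7 CPM in KO (log2 0.56, SE 0.10; DESeq2 adjusted p = 0.00245, edgeR adjusted p = 0.499). Prkce, a protein kinase C isoform, was at 314, 322 and 318 CPM in WT and 238, 235 and 272 CPM in KO (log2 -0.36, SE 0.08; DESeq2 adjusted p = 0.0339, edgeR adjusted p = 0.627). Both were singled out after their values were seen, and in both the groups did not overlap.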
